A study of Mus musculus with 6 samples.

Results

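The genes described here are those of the interferon response and of nucleic acid sensing in MPC5, a conditionally immortalised mouse podocyte line. They were taken from a list of 54 names matched to the gene symbols of the deposited count table, in which 49 were found among 21719 genes. Of the other names, Oas1b, Mx1 and Mx2 were not analysed here, Ddx58 is carried by the table under its current symbol Rigi and is reported beside the list, and the remaining entry is not a gene symbol. Interferons are secreted proteins that bind paired receptor chains, switch on the kinases JAK1 and TYK2 and, through STAT and IRF transcription factors, raise a set of antiviral and antigen-processing genes. Cells begin this programme when sensors such as RIG-I, MDA5 and cGAS meet foreign or misplaced RNA or DNA, and most cells also hold low basal amounts of many of the induced transcripts. In podocytes, interferon-inducible genes are known from viral and inflammatory forms of glomerular disease.

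RNA of 6 MPC5 libraries was sequenced, 3 labelled Setdb2WT and 3 labelled Setdb2KO, and the cells of both groups were in high glucose, so neither group is a normal-glucose control. The protein encoded by Setdb2 belongs to the family of SET-domain lysine methyltransferases that act on histone H3. How much glucose was used and for how long, how Setdb2 was edited, and whether the edited cells are 1 clone or a pool is not given in the sources used here. The culture temperature and any interferon gamma in the medium are not reported here, so the levels below are not shown to be basal. Nothing in the labels ties the libraries to separate cultures, and p-values then reflect only the spread among these libraries, which may be technical.

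Setdb2 itself did not check the labels. Its reads numbered 12, 10 and 9 under the label Setdb2WT and 17, 15 and 25 under Setdb2KO (log2 fold change 0.73, 95% interval -0.09 to 1.55; adjusted p = 0.088, edgeR quasi-likelihood test), and the groups are therefore called by their labels. Total counts were 36461449 to 37129174 reads per library. No library was a repeat deposit: over genes, the chi-square of a pair of libraries divided by its degrees of freedom was 2.51 to 2.65 within Setdb2WT and 4.22 to 14.8 within Setdb2KO. Among podocyte markers, Wt1 had 3 and 1 reads over the libraries of each group, labelled Setdb2WT first. Synpo and Podxl were detected, at 43.6 and 50.5 CPM in Setdb2WT-labelled libraries and at 25.4 and 4.96 CPM in Setdb2KO-labelled ones, and of 10 podocyte markers tested 3 were higher and 7 lower, where 83.8% of all genes tested were called; their part in the results below was not tested. Of 23 leukocyte markers 12 were in the table, and their summed level was 14.8 to 15.9 CPM in Setdb2WT-labelled libraries and 11.9 to 14.9 CPM in Setdb2KO-labelled ones, mostly from Csf1r and Cd68. Ptprc, which defines leukocytes, summed to 14 and 0 reads per group in the same order, and Itgam, a myeloid marker, to 0 and 34. Of 4 leukocyte markers tested 2 were higher, 1 lower and 1 did not pass. Cd79a rose 4.40-fold, from 43 to 210 summed reads, Cd68 rose 1.25-fold and Csf1r fell 1.86-fold. Of 9 endothelial markers 5 were tested, and 2 were higher and 3 lower. CPM, the read count scaled to library size, was computed with library sizes adjusted by the trimmed mean of M values (TMM), and values with ± are the mean and SD over 3 libraries.

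Interferon-inducible promoters often hold an interferon-stimulated response element, which binds complexes of STAT and IRF proteins, and the members that hold it here moved in different directions. Promoter windows of RefSeq on GRCm38.p6, from 250 bases before to 50 bases after a start site, were found for 42 of the 49 members and for Rigi. Dhx58, Ifi27, Oas2, Parp9, Parp14, Usp18 and Zbp1 had no entry. Its core, GAAA followed by any 2 bases and GAAA again, was searched on both strands and lay in a window of 17 of the 42 members (40.5%), against 3.99% of all 27025 genes with a window of the same length. The stretches below, upstream of the start site, were chosen to set 3 members that did not pass the test between the groups (Isg15, Ifit1, Ifit3) beside 2 that were higher (Oas1a, Bst2) and 3 that were lower (Irgm1, Gbp7, Stat2) in Setdb2KO-labelled libraries. They are written 5′ to 3′ on the strand of the gene, and capitals mark the matches, which begin with TTTC where the core lies on the other strand. The calls of Ifit1 and Oas1a lie just on either side of the limit, with an adjusted p of 0.053 and 0.046 (edgeR). Their log2 fold changes were 0.27 and 0.41, beside 0.29 for Bst2, so Ifit1 is not shown to differ from the higher members.

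Isg15 (chr4:156200850-156200921, minus strand): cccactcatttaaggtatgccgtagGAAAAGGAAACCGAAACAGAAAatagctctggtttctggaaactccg
Ifit1 (chr19:34640760-34640838, plus strand): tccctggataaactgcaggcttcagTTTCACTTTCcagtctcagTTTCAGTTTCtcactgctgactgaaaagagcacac
Ifit3 (chr19:34583348-34583441, plus strand): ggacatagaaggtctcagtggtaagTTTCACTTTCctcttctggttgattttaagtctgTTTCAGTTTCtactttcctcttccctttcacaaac
Oas1a (chr5:120907526-120907570, minus strand): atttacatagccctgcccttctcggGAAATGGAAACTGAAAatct
Bst2 (chr8:71537562-71537627, minus strand): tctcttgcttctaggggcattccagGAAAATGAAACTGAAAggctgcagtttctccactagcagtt
Irgm1 (chr11:48871421-48871475, minus strand): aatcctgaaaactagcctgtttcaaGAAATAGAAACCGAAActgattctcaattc
Gbp7 (chr3:142530258-142530317, plus strand): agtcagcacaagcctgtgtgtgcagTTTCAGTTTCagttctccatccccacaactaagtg
Stat2 (chr10:128270251-128270310, plus strand): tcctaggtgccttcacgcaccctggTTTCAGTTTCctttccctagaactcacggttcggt

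Isg15 holds 3 overlapping matches in a row, and Bst2, Irgm1 and Oas1a hold 2 that overlap by 4 bases. The Ifit1 and Ifit3 matches are separate. The 17 members with the core split into 3 higher, 6 lower and 8 that did not pass, and their median log2 fold change was -0.13. The 24 tested members without it had 6 higher, 11 lower and 7 that did not pass, with the same median of -0.13. The median size of the log2 fold change was 0.38 with the core and 0.31 without it. Over all genes tested that median was 0.66, and 83.8% were called. The gamma-activated site TTCNNNGAA, which binds STAT dimers and reads the same on both strands, lay in a window of 13 of the 42 members (31.0%), against 9.55% of all genes with a window. By call, it lay in a window of 5 of 9 higher members, 5 of 17 lower ones and 3 of 15 that did not pass. Whether these shares differ was not tested. Of 14 such matches in the windows of the members and Rigi, 2 overlapped a match to the other motif. These matches are a description of the letters in each window and not of binding.

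Across the list, fewer genes were called and the changes were smaller than among all genes tested. Of 49 members 47 passed the filter on low counts, and Ifitm1 and Oas2 did not. The edgeR quasi-likelihood test, adjusted by Benjamini-Hochberg over all genes tested, called 11 of the 47 higher and 19 lower in Setdb2KO-labelled libraries, and 17 did not pass. The called share of 63.8% stands beside 83.8% of all 13509 genes tested, of which 41.5% were higher and 42.3% lower. The libraries of the groups did not overlap in 30 of the 47 (63.8%), against 84.6% of all genes tested. A change of at least 2-fold was found in 9 of the 47 (19.1%), against 32.6% of all genes tested. The median size of the log2 fold change was 0.36 in the list and 0.66 over all genes tested.

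The members were also less abundant, with a median of 13.5 CPM against 29.0 CPM. Among genes with a mean of at least 10 CPM, a limit chosen after seeing the data, 20 of 26 members were called (76.9%), against 88.2% of 9100 genes, and 5 of the 26 (19.2%) changed at least 2-fold, against 22.7%. The median log2 fold change over the 47 members was -0.13, beside 0.0045 over all genes tested. It was -0.057 without Setdb2KO replicate 3, -0.069 without Setdb2WT replicate 2 and -0.11 to -0.094 without any other single library. Under total-count scaling, which moved the median of all genes to 0.16, the median of the list turned to 0.026 and the split became 16 higher and 16 lower. The distance between the list's median and that of all genes was -0.13 under both scalings. The spread between libraries of a group was like that of other genes, with a median coefficient of variation over the 26 members of 2.84% in Setdb2WT-labelled libraries and 3.93% in Setdb2KO-labelled ones, beside 2.76% and 3.98% over the 9100 genes.

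**Figure D1:**
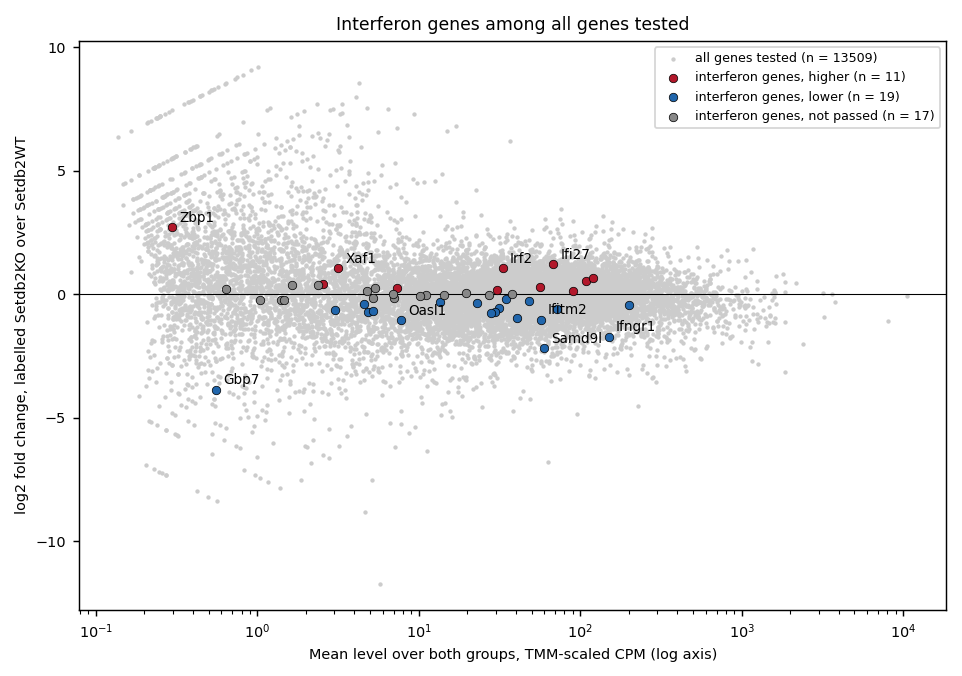
Each grey point is 1 of the 13509 genes tested, placed by its mean level over both groups (CPM, log axis) and its log2 fold change of Setdb2KO-labelled libraries over Setdb2WT-labelled ones; coloured points are the 47 tested interferon genes, red for 11 higher, blue for 19 lower and grey with an outline for 17 that did not pass. Most members lie within 1 log2 unit of 0, and the 9 named ones lie beyond it.

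Of 6 receptor and kinase members 5 fell in Setdb2KO-labelled libraries, none rose and Tyk2 did not pass. Their called share of 83.3% is near the 83.8% of all genes tested. Ifngr1, the ligand-binding chain of the interferon gamma receptor, was at 230.3 ± 1.88 CPM in Setdb2WT-labelled libraries and at 70.1 ± 2.11 CPM in Setdb2KO-labelled ones. Its 3 libraries were at 230.5, 232 and 228 CPM in the first group and at 69.7, 72.3 and 68.2 CPM in the second, with no overlap. This is a 3.29-fold fall (log2 fold change -1.72, SE 0.03; adjusted p = 1.2e-14, edgeR quasi-likelihood test), the second largest among members above 10 CPM after Samd9l. In bulk RNA, fewer cells that express a gene and less RNA per cell cannot be told apart.

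The partner chain Ifngr2 moved little, at 35.1, 38.8 and 36.5 CPM against 32.3, 32.4 and 32.5 CPM. Its 1.14-fold fall passed the test (adjusted p = 0.0047, edgeR), but not under total-count scaling (adjusted p = 0.604). Both chains of the type I receptor fell as well. Ifnar1 was at 87.5, 89.8 and 81.4 CPM against 55.8, 59.8 and 57.9 CPM, a 1.49-fold fall (adjusted p = 2.5e-08, edgeR), and Ifnar2 fell 1.27-fold. Jak1, the kinase shared by both receptors, fell 1.33-fold from 228.9 ± 3.24 to 172.2 ± 2.42 CPM. Tyk2, the second kinase of the type I receptor, had overlapping libraries and a 95% interval of its log2 fold change from -0.16 to 0.12.

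**Figure D2:**
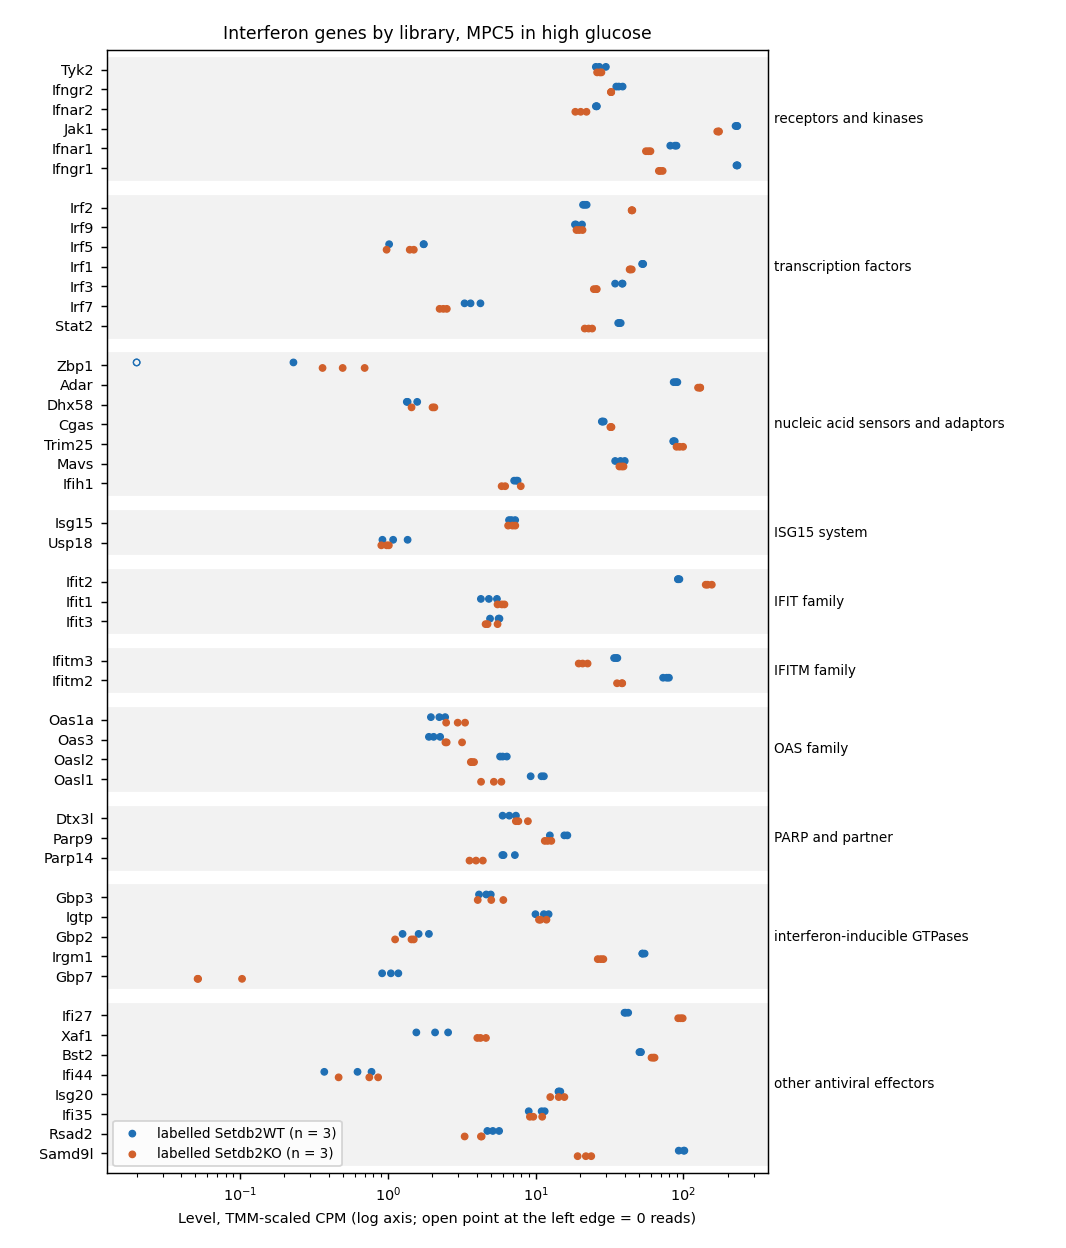
Points are single libraries of the 47 tested members (blue, labelled Setdb2WT; orange, labelled Setdb2KO), on a log axis of TMM-scaled CPM, grouped by role. Ifngr1 and Samd9l show the widest gaps among abundant members, and the points of Isg15, Mavs, Igtp and Tyk2 overlap.

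The transcription factors split. Of 7 members 4 fell, 1 rose and 2 did not pass, a called share of 71.4% beside 83.8% of all genes tested. Stat2, the STAT that pairs with IRF9 downstream of the type I receptor, was at 36.9, 37.6 and 36.2 CPM in Setdb2WT-labelled libraries and at 24.1, 21.5 and 22.8 CPM in Setdb2KO-labelled ones. The groups do not overlap, and the fall was 1.62-fold (log2 fold change -0.69, SE 0.06; adjusted p = 3.9e-08, edgeR). Its partner Irf9 had overlapping libraries, at 19.3 ± 1.16 and 19.8 ± 0.94 CPM, and a 95% interval of -0.11 to 0.19, but passed as higher under total-count scaling (log2 fold change 0.19; adjusted p = 0.0168).

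Irf2, which competes with IRF1 for the same DNA element and can restrain interferon-inducible genes, rose. It was at 22.1, 20.9 and 21.5 CPM in Setdb2WT-labelled libraries and at 44.8, 44.6 and 45.1 CPM in Setdb2KO-labelled ones, with little spread in either group. The rise was 2.08-fold (log2 fold change 1.06, SE 0.05; adjusted p = 8.2e-11, edgeR). Irf1, an activator, fell 1.21-fold from 53.0 ± 0.44 to 43.9 ± 0.75 CPM. Irf3, which is activated downstream of nucleic acid sensors, fell 1.46-fold, and Irf7, an amplifier of type I interferon production, fell 1.57-fold from a low level of 3.72 CPM. Irf5 stayed near 1 to 2 CPM with overlapping libraries and an interval of -0.80 to 0.36.

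Among sensors and adaptors 4 of 7 tested members rose, none fell and 3 did not pass, a called share of 57.1% beside 83.8% of all genes tested, of which 41.5% were higher. Adar, the enzyme that edits adenosine in double-stranded RNA and limits its sensing, was at 90.9, 85.9 and 89.0 CPM in Setdb2WT-labelled libraries and at 126, 129.9 and 129.6 CPM in Setdb2KO-labelled ones. The rise was 1.45-fold (log2 fold change 0.53, SE 0.04; adjusted p = 4.0e-09, edgeR). In GENCODE M21, 22.8% of its exon bases overlap exons of Chrnb2 on the opposite strand, and Chrnb2 had 29, 15 and 21 reads against 287, 320 and 286. The counting strand is not stated, so reads in the overlap cannot be assigned to either gene. Rigi, the RNA helicase RIG-I listed as Ddx58, rose 1.85-fold, from 25.9, 25.4 and 26.9 CPM to 48.9, 48.9 and 46.9 CPM (adjusted p = 5.0e-10, edgeR).

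The DNA sensor Cgas rose 1.14-fold from 28.4 ± 0.43 to 32.3 ± 0.28 CPM, and Trim25, a ubiquitin ligase that acts on RIG-I, rose 1.10-fold. Both changes are small. Their libraries did not overlap between the groups, which also held for 84.6% of all genes tested. Zbp1, a sensor of left-handed double helices that can start necroptosis, was nearly undetected in Setdb2WT-labelled libraries, with 0, 0 and 8 reads against 14, 27 and 19. Its summed reads, 8 and 60, scaled to the TMM library sizes, gave a ratio of 6.80 with an exact 95% interval of 3.24 to 16.5, which covers counting error alone. The call (adjusted p = 0.0039, edgeR) was not shared by the DESeq2 Wald test (adjusted p = 0.106). Zbp1 passed the filter on low counts only through Setdb2KO-labelled libraries, where it is high. Its call, its interval and its place among the sensors that rose are therefore not independent of that selection. Without replicate 3 of Setdb2WT-labelled libraries that group has 0 reads, and the scaled level was at least 12.1-fold higher, taking a floor of 3 counts over the group.

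Ifih1, which encodes MDA5, the adaptor Mavs and the regulator Dhx58 did not pass the test. Mavs had 37.4 ± 2.78 and 38.1 ± 1.23 CPM, with a 95% interval of the log2 fold change of -0.10 to 0.15, and it passed as higher under total-count scaling (adjusted p = 0.0103). The 3 libraries labelled Setdb2KO spread more for Ifih1, at 7.94, 6.22 and 5.89 CPM against 7.55, 7.403 and 7.16 CPM. Without replicate 1 of that group Ifih1 was called lower (log2 fold change -0.28; adjusted p = 0.0349, edgeR) and Dhx58 higher (log2 fold change 0.51; adjusted p = 0.0487).

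**Figure D3:**
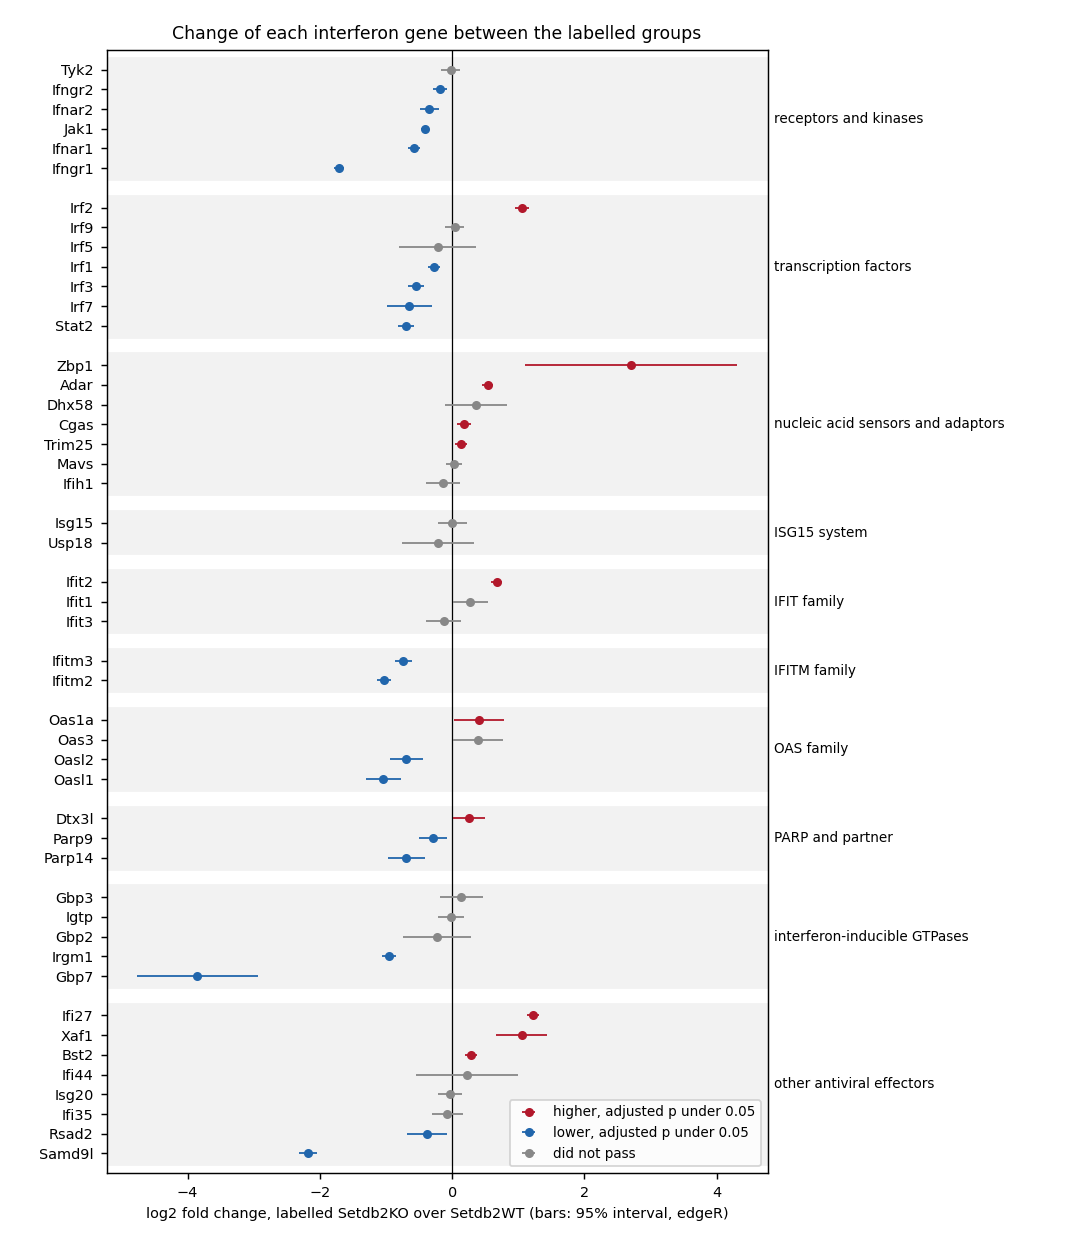
Points are log2 fold changes of Setdb2KO-labelled libraries over Setdb2WT-labelled ones for the 47 tested members, bars are 95% intervals from edgeR, and colours give the call. Receptors and kinases lie at or left of 0, sensors and adaptors mostly at or right of it, and the OAS, PARP and other effector groups hold both directions.

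Isg15, a ubiquitin-like protein conjugated to targets during the interferon response and among the most responsive of interferon-inducible genes, did not differ beyond its spread. Its libraries were at 6.61, 6.86 and 7.27 CPM when labelled Setdb2WT and at 6.98, 7.28 and 6.52 CPM when labelled Setdb2KO, fully overlapping. The log2 fold change was 0.00 with a 95% interval of -0.21 to 0.22. Usp18, which removes ISG15 from its targets and blocks receptor signalling, was near 1 CPM in both groups, with an interval of -0.76 to 0.33.

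The IFIT proteins bind foreign RNA ends or the translation machinery. Ifit2 was the most abundant of them and was at 93.9, 91.9 and 91.8 CPM in Setdb2WT-labelled libraries and at 146, 141 and 156 CPM in Setdb2KO-labelled ones. It rose 1.59-fold (log2 fold change 0.67, SE 0.04; adjusted p = 8.7e-10, edgeR). Ifit1 and Ifit3 lay near 5 CPM. Ifit1 was at 4.86 ± 0.61 and 5.86 ± 0.32 CPM, did not pass (adjusted p = 0.053, edgeR), and did so under 5 of 14 alternatives, among them leaving out Setdb2WT replicate 2 (adjusted p = 0.0278; 0.0054 to 0.22 over all 14). Ifit3 had overlapping libraries and an interval of -0.39 to 0.14. Its near-identical neighbour Ifit3b had 53, 53 and 68 reads against 27, 21 and 17 and was called lower, and the split of reads between both copies is uncertain. Whether Ifit2 differed in its change from Ifit1 and Ifit3 was not tested.

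IFITM membrane proteins hinder the entry of enveloped viruses, and both members tested, Ifitm2 and Ifitm3, fell. Of all genes tested 83.8% were called and 42.3% were lower. Ifitm2 was at 72.8, 79.8 and 77.1 CPM in Setdb2WT-labelled libraries and at 35.5, 38.5 and 38.4 CPM in Setdb2KO-labelled ones. The groups were far apart, a 2.04-fold fall (log2 fold change -1.03, SE 0.05; adjusted p = 8.8e-11, edgeR). Ifitm3 fell 1.67-fold from 34.9 ± 0.88 to 20.9 ± 1.45 CPM. Ifitm1 had 1 and 4 reads over the libraries of each group and was not tested. Ifitm10, a relative placed on the list of other interferon-inducible genes, was named after its values were seen. It fell 5.04-fold from 4.89 ± 1.00 to 0.97 ± 0.15 CPM, and whether it responds to interferon was not tested. Members of this family are alike in sequence, and reads that map to several of them make their counts uncertain.

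The OAS family, which makes short oligoadenylates that activate RNase L, and its relatives held both directions. Oasl1, a family member without synthetase activity, was at 10.96, 11.4 and 9.26 CPM in Setdb2WT-labelled libraries and at 5.87, 5.22 and 4.27 CPM in Setdb2KO-labelled ones. It fell 2.06-fold (log2 fold change -1.04, SE 0.12; adjusted p = 2.6e-06, edgeR), and Oasl2 fell 1.62-fold from 6.04 ± 0.32 to 3.72 ± 0.10 CPM. Oas1a and Oas3 both lay near 2 to 3 CPM. Oas1a was at 2.23, 1.96 and 2.44 CPM against 2.48, 3.33 and 2.97 CPM and rose 1.32-fold at the edge of the test (adjusted p = 0.046, edgeR; 0.0091 to 0.18 over 14 alternatives, with the call lost in 8, among them leaving out Setdb2WT replicate 1 or 2 or Setdb2KO replicate 2 or 3). Oas3, with a log2 fold change of 0.39, did not pass (adjusted p = 0.056; 0.0117 to 0.22, with a call in 5, among them leaving out Setdb2KO replicate 2). Oas2 had 5 and 12 reads over the libraries of each group.

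Dtx3l, a ubiquitin ligase, and Parp9, its partner in DNA repair and STAT signalling, moved apart by small amounts. Parp9 fell 1.22-fold, from 16.4, 12.5 and 15.6 CPM to 11.5, 12.1 and 12.8 CPM, and Dtx3l rose 1.19-fold, from 5.98, 6.64 and 7.36 CPM to 8.87, 7.65 and 7.35 CPM. In both genes the libraries of the groups overlap. Each call was lost under some alternatives. For Parp9 these were 4 of 14, without Setdb2WT replicate 1 (adjusted p = 0.0744) or 3 (0.0573) or Setdb2KO replicate 1 (0.0578) among them. For Dtx3l these were 7 of 14, without Setdb2WT replicate 1 (adjusted p = 0.215) or 2 (log2 fold change 0.24) or Setdb2KO replicate 1 (adjusted p = 0.200) among them. The genes share 367 exon bases on opposite strands, so part of their reads cannot be told apart. Parp14, a macrodomain protein of the same family, fell 1.62-fold from 6.42 ± 0.71 to 3.97 ± 0.41 CPM (adjusted p = 1.9e-04, edgeR).

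Interferon-inducible GTPases, which attack the membranes around intracellular pathogens, were lower or did not pass. Of 5 tested 2 were lower and 3 did not pass, a called share of 40% beside 83.8% of all genes tested. Irgm1, a regulator of the other immunity-related GTPases and of autophagy, was at 52.7, 52.8 and 54.6 CPM in Setdb2WT-labelled libraries and at 27.6, 28.7 and 26.3 CPM in Setdb2KO-labelled ones. It fell 1.94-fold (log2 fold change -0.95, SE 0.05; adjusted p = 2.4e-10, edgeR). Gbp7 had 32, 37 and 41 reads in the first group and 2, 4 and 2 in the second, a 15.2-fold difference of the summed reads after scaling to the TMM library sizes (exact 95% interval 7.43 to 36.0) (adjusted p = 1.0e-06, edgeR). Gbp7 thus had the largest fitted fall of the list, at a low level. It passed the filter on low counts only through Setdb2WT-labelled libraries, where it is high. Its p-value and interval are therefore not independent of that selection. The guanylate-binding genes Gbp2 and Gbp3 and the GTPase Igtp had overlapping libraries, and Igtp, at 11.2 ± 1.14 and 11.1 ± 0.69 CPM, had an interval of -0.22 to 0.18.

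The other effectors held large changes in both directions, with log2 fold changes from -2.18 to 1.22. Of 8 tested 3 were higher, 2 lower and 3 did not pass, a called share of 62.5% beside 83.8% of all genes tested. Samd9l, a translation inhibitor with antiviral and antiproliferative action, was at 92.9, 100.4 and 101 CPM in Setdb2WT-labelled libraries and at 23.8, 19.2 and 21.9 CPM in Setdb2KO-labelled ones. It fell 4.54-fold (log2 fold change -2.18, SE 0.07; adjusted p = 6.1e-13, edgeR), and its groups were the farthest apart in fold of members above 10 CPM. Ifi27, a small mitochondrial protein, moved the other way, from 39.9, 40.6 and 42.3 CPM to 92.2, 95.7 and 98.8 CPM. The rise was 2.33-fold (log2 fold change 1.22, SE 0.04; adjusted p = 3.0e-12, edgeR). Xaf1, an antagonist of the apoptosis inhibitor XIAP, rose 2.07-fold from 2.07 ± 0.50 to 4.29 ± 0.29 CPM, and Bst2, which tethers budding virions, rose 1.22-fold from 51.1 ± 0.62 to 62.4 ± 1.48 CPM. Rsad2, which encodes viperin, fell 1.30-fold near 5 CPM (adjusted p = 0.020, edgeR) and lost the call under total-count scaling (adjusted p = 0.141) and without replicate 1 labelled Setdb2WT (adjusted p = 0.0714) or replicate 3 labelled Setdb2KO (adjusted p = 0.0946). Isg20, an exonuclease, and Ifi35 and Ifi44 had overlapping libraries.

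The order of the most abundant members changed between the groups when levels were set per kilobase of exon (CPM per kilobase, GENCODE M21 exon lengths). In Setdb2WT-labelled libraries the highest were Ifitm2 at 116.9 ± 5.33 and Ifngr1 at 109.0 ± 0.89, followed by Bst2 at 64.5 ± 0.79 and Ifitm3 at 51.5 ± 1.30. In Setdb2KO-labelled ones, Ifi27 was first at 93.3 ± 3.26, then Bst2 at 78.8 ± 1.87 Ifitm2 at 57.2 ± 2.56 and Ifit2 at 38.7 ± 1.89. Ifngr1 had dropped to 33.2 ± 1.00, close to Jak1 at 35.1 ± 0.49 and Ifitm3 at 30.9 ± 2.15. There the SDs of Ifngr1 and Ifitm3 overlap. Same-strand exons of another gene cover 40.9% of the annotated Ifitm2 exon bases, so its level per kilobase depends on how reads in them were counted.

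Interferon genes themselves were hardly detected. Of 11 ligand genes looked up, Ifna4 and Ifne were in the table, with 1 and 0 reads and with 1 and 2 reads over the libraries of each group, and the other ligands were not analysed here. Other signalling genes of the pathway had 5 higher, 8 lower and 1 that did not pass of 14 tested, with a median log2 fold change of -0.30. Their called share was 92.9%, beside 83.8% of all genes tested. Socs3, a feedback inhibitor of JAK kinases, fell 1.76-fold from 77.5 ± 2.94 to 44.2 ± 1.36 CPM. Among partners of IRF2, Irf2bpl rose 1.37-fold and Irf2bp1 fell 1.41-fold, and the phosphatase gene Ptpn11 rose 1.25-fold.

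The list of other nucleic acid sensing genes, Rigi among them, had 11 higher, 13 lower and 1 that did not pass of 25 tested, with a median of -0.18. Its called share was 96%, beside 83.8% of all genes tested. The list also holds Tlr2 and Tlr4, which are not nucleic acid sensors, and both were called higher. Trim56, a ubiquitin ligase that acts in DNA and RNA sensing, rose 3.54-fold from 11.1 ± 0.63 to 39.4 ± 1.52 CPM. Samhd1, which degrades deoxynucleotides, fell 1.74-fold, Rnaseh2a, a subunit of the nuclease that clears RNA from DNA hybrids, fell 1.71-fold, and the stress granule protein G3bp1 fell 1.84-fold. Other interferon-inducible genes had 7 higher, 23 lower and 10 that did not pass of 40 tested, with a median of -0.44. Their called share was 75%, below that of all genes tested. Ifi47, an immunity-related GTPase, fell 8.70-fold from 17.2 ± 0.33 to 1.98 ± 0.33 CPM, Herc3 fell 4.79-fold, and the galectin gene Lgals9 and Lgals3bp fell 2.29-fold and 2.17-fold. Whether the genes of this list, Herc3 among them, respond to interferon in these cells was not tested. Under total-count scaling these 3 lists had 5 higher and 7 lower, 12 and 12, and 10 and 23, in the same order.

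**Figure D4:**
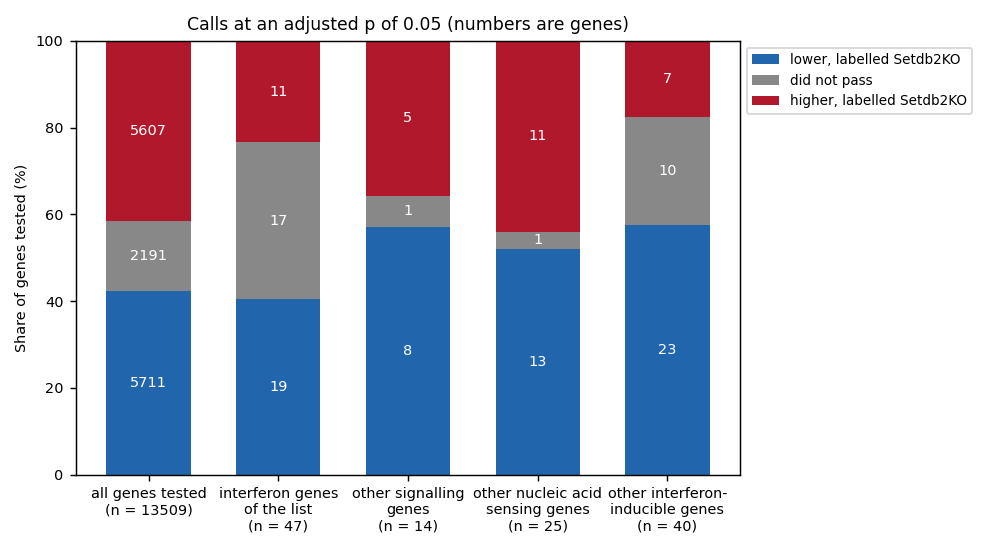
Bars split the genes tested of each list into lower (blue), not passing (grey) and higher (red) in Setdb2KO-labelled libraries, as a share in percent with the gene counts printed inside. The interferon genes of the list have the tallest grey part, 17 of 47, against 2191 of 13509 for all genes tested.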

How the data were processed

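RNA of 6 MPC5 samples was isolated with TRIzol, and the library kit was VAHTS Universal V6 (labels' protocols). The values deposited by the authors are raw counts of reads, 1 column per library. The submitters' processing notes name fastp, HISAT, HTSeq and GRCm39, while versions, annotation and strand are left not given in the sources used here. Columns were matched to samples by genotype and replicate number, and genes by symbol.

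Counts were tested with edgeR 4.0.16 in R 4.3.3 (quasi-likelihood F test, TMM, filterByExpr at a minimum of 10, a model of genotype alone), adjusted over all genes tested at 0.05. Intervals of summed reads are exact at 95% and cover counting error only. Alternatives used DESeq2 1.42.0, limma 3.58.1, other scalings and filters, the replicate number as a block, and each library left out. Scripts were tested on simulated data, in which edgeR recovered 17 of 50 changes of 1.2-fold and 50 of 50 of 1.5-fold. It made 12 false calls there among 13318 genes tested. Exon lengths and promoters are of GRCm38, not the authors' build.

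Members and lists were chosen with earlier results of these data known. Named genes were Setdb2, every member found, and up to 4 genes of each other pathway list with the smallest adjusted p and a mean of at least 1 CPM, and ligands with reads. Wt1, Synpo, Podxl, Csf1r, Cd68, Cd79a, Ptprc and Itgam are named as cell type markers, and Chrnb2, Ifit3b and Ifitm10 as genes overlapping or related to a member. Tlr2 and Tlr4 are named as list entries that are not nucleic acid sensors. All of these fall outside the rule and were chosen after their values were seen.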

Additional observations from a re-analysis of the deposited data

How the results depend on the processing

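Of the 30 called members 24 were called under each of 14 alternatives that tested them, and none of the 30 changed direction; Zbp1, Oas1a, Dtx3l, Parp9, Rsad2 and Ifngr2 lost the call under at least 1. Another 6 members gained a call under at least 1. Total-count scaling moved the median log2 fold change of the list from -0.13 to 0.026 and that of all genes to 0.16, and gave Setdb2 a log2 fold change of 0.88 that passed (adjusted p = 0.043). Restricting to genes with a mean of at least 10 CPM, chosen after seeing the data, left 7 members higher and 13 lower of 26, because fewer genes were tested. Leaving out each library gave 9 to 11 members higher and 17 to 19 lower. With the replicate block 9 members were higher and 19 lower, Oas1a (adjusted p = 0.0726) and Dtx3l (adjusted p = 0.0705) being no longer called, and 11190 of all genes were called, beside 11318. Same-numbered libraries share only a number: their deviations from the group means correlated at 0.000719, -0.0301 and -0.0117, and not every library correlated best with its own number. Genes with a few reads per library, such as Zbp1 and Gbp7, carry wide counting error.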
